A study of Mus musculus with 36 samples.

Results

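The 10 genes described here are Atf4, the transcription factor that drives the integrated stress response, with the stress response genes Ddit3, Trib3, Asns and Chac1, the serine synthesis genes Phgdh and Psat1, the mitochondrial folate genes Shmt2 and Mthfd2, and Cth of sulfur amino acid metabolism. They were chosen by symbol and are 10 of 53379 genes in the count tables. RNA was sequenced from formalin-fixed, paraffin-embedded mouse tissue in 36 libraries of 7 groups. In the adult model, Cre recombinase under the Sglt2 promoter, which is active in proximal tubule cells, removes a stop cassette in front of the ASPSCR1-TFE3 fusion of translocation renal cell carcinoma. There, 6 mice of the genotype Sglt2-Cre; ASPSCR1-TFE3 LSL/+ gave 11 kidney tumor libraries, retro-orbital tumors of 4 mice, brain tumors of 3 mice and non-transformed kidney of 4 mice. Normal kidney of 3 Sglt2-Cre control mice, which carry the Cre but no fusion, gave 6 libraries. In the fetal model, Cre under the Pax8 promoter, which is active in developing renal epithelium, gave dysmorphic kidneys of 5 Pax8-Cre; ASPSCR1-TFE3 LSL/+ fetuses, set against kidneys of 3 control fetuses of matched age. The control fetuses carry the genotype label Pax8-Cre, whereas the study's design text also allows the unrecombined ASPSCR1-TFE3 LSL/+ allele alone. Ages were not given in the labels, and no treatment beyond breeding was stated. Libraries of the same animal and tissue were summed, so that the animal was the replicate, with 28 sums in all. A kidney tumor value given by mouse thus covers the 2 tumors of mice 1, 2, 3, 4 and 6 and the single tumor of mouse 5.

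Cells that lack amino acids, accumulate unfolded protein or lack heme phosphorylate the translation factor eIF2. Protein synthesis then falls in general while the Atf4 messenger RNA is translated better, so the level of Atf4 RNA and the activity of ATF4 protein need not move together. ATF4 binds C/EBP-ATF response elements and raises genes for amino acid uptake, amino acid synthesis and transfer RNA charging. In the serine branch, Phgdh and Psat1 make serine from a glycolytic intermediate, Shmt2 passes its carbon to folate in mitochondria, and Mthfd2 oxidizes the folate formed. Cth makes cysteine from cystathionine, and adult kidney is known for both serine synthesis and this transsulfuration step.

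Total counts per library ranged from 80205573 to 121415057, and each member had 6 to 38735 counts in a library. Among small counts the share of even values was 79.04% to 84.33% by library, for a reason not given in the sources used here. A small count may thus hold fewer independent reads than its value, and halved counts were run as an alternative. Levels are given in CPM, counts relative to the library total after TMM scaling of all libraries together. Gpnmb, a target of MiT/TFE factors, was at 1.60 to 2.51 CPM in control kidneys and 2940 to 7215 CPM in kidney tumors. In non-transformed kidney of fusion mice it was at 111 to 462 CPM. Several libraries stood apart in markers of other cells. The first kidney tumor library of mouse 4, number 7 of the 11, held 35.2 CPM of the astrocyte filament Gfap, compared to at most 0.138 CPM in the other 10. The single kidney tumor library of mouse 5 held 7555 CPM of 8 summed proximal tubule markers and the kidney tumor of mouse 4 held 7945 CPM, compared to 637 to 2493 CPM in mice 1, 2, 3 and 6 and 11448 to 12770 CPM in control kidneys. Among brain tumors, that of mouse 1 held 0.176 CPM of Gfap and those of mice 2 and 4 held 120.95 and 150 CPM, whereas the neuronal Rbfox3 was at 90.5 CPM in mouse 1 and 57.6 and 56.3 CPM in mice 2 and 4. Control fetus 3 held 19.9 CPM of 4 summed renal lineage factors, compared to 203 and 107 CPM in control fetuses 1 and 2. Results that rest on these libraries are given with and without them. Against kidney tumors, the brain tumor of mouse 1 was left out only together with that mouse's kidney tumors.

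**Figure D1:**
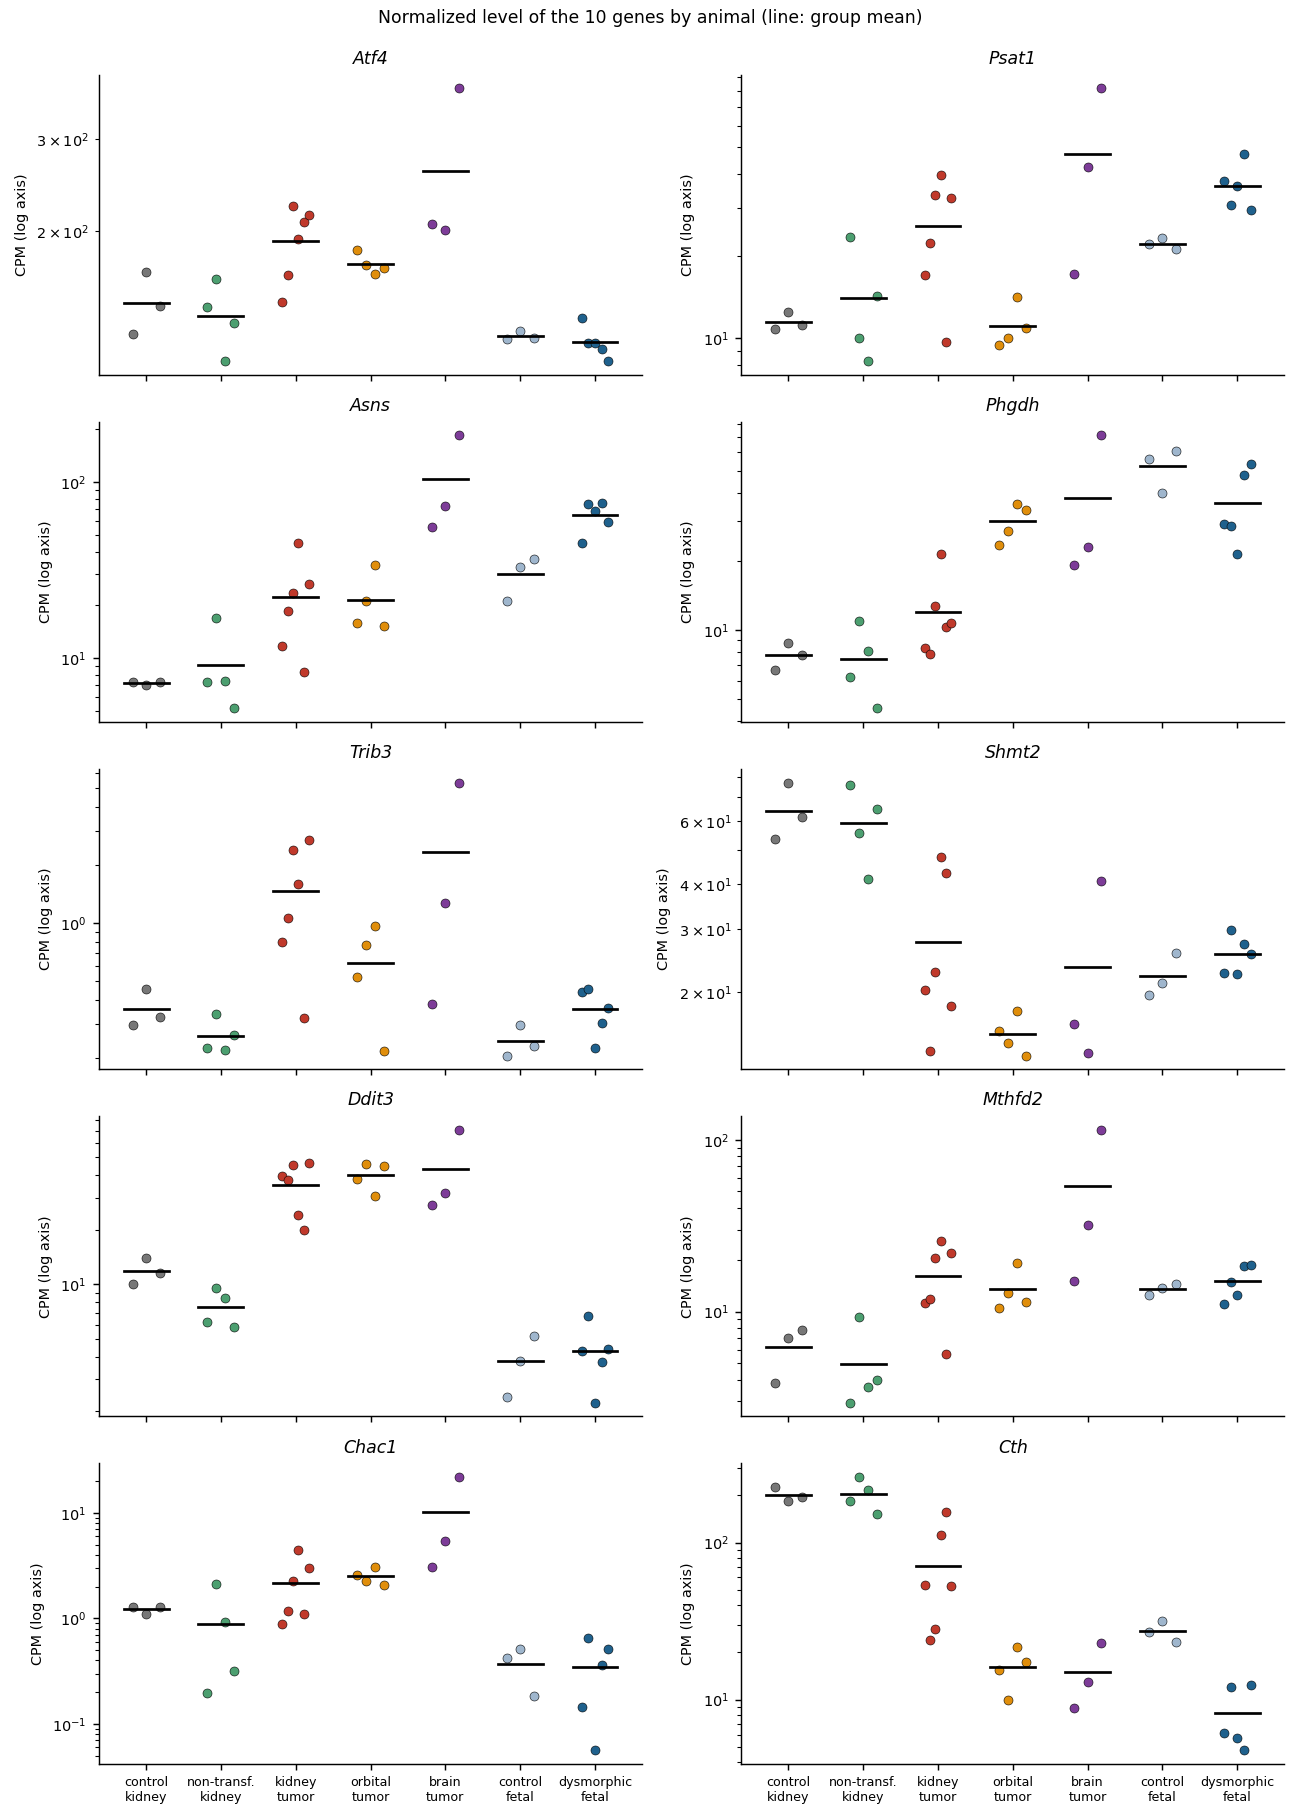
Level of each member in CPM on a log axis, with 1 point per animal in each of the 7 groups and a line at the group mean. Asns was at 55.6 to 184 CPM in the 3 brain tumors, Ddit3 was at 19.8 CPM or more in the tumors of every adult mouse and at 13.96 CPM or less in every kidney without tumor, and Cth was at 153 CPM or more in control and non-transformed kidneys.

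Each member is a protein-coding gene on GRCm38. Atf4 (ENSMUSG00000042406.7) lies at chr15:80255184-80257541 on the plus strand, Ddit3 (ENSMUSG00000025408.15) at chr10:127290774-127296288 on the plus strand and Chac1 (ENSMUSG00000027313.3) at chr2:119351229-119354381 on the plus strand. The other members lie on the minus strand. Trib3 (ENSMUSG00000032715.9) lies at chr2:152337422-152344032, Asns (ENSMUSG00000029752.12) at chr6:7675169-7693254 and Mthfd2 (ENSMUSG00000005667.8) at chr6:83305691-83325908. Phgdh (ENSMUSG00000053398.11) lies at chr3:98313170-98339990, Psat1 (ENSMUSG00000024640.9) at chr19:15904678-15947337, Shmt2 (ENSMUSG00000025403.5) at chr10:127517123-127522444 and Cth (ENSMUSG00000028179.12) at chr3:157894248-157925077. The values span all exons of each gene. The spans of Ddit3, Psat1 and Shmt2 overlap a gene on the other strand by 15 to 556 bases. Those of Mthfd2 and Cth overlap an unnamed model on the same strand. Whether exons overlap was not examined, so the effect on the counts is not known. Phgdh has 13 copies elsewhere in the annotation with at least 95% identity over 200 bases or more. Counts at the 12 copies found in the tables came to 0.104 to 9.96 CPM together in a library, between 1.67% and 74.8% of the count of Phgdh in the same library, and Phgdh is therefore the least certain member.

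Promoter letters were read for the ATF4 element, because several members are known targets of ATF4. RefSeq (GRCm38.p6) gave promoters for 9 of the 10 members, all but Cth, and alternative starts for Psat1, so that 10 windows of 250 bases before the start were searched. The element was written TGATGNAA, and the CACGTG box bound by MiT/TFE factors was searched beside it, both on either strand. TGATGNAA was present in 3.45% of 32851 promoter windows of that length and CACGTG in 6.02%. Among the members, TGATGNAA was found in the windows of Asns and Chac1, and CACGTG in no window. Both matching promoters are shown 5′ to 3′ with the match in capitals, from chr6:7693225-7693459 on the minus strand for Asns, cut off where the match ends, and from chr2:119350992-119351241 on the plus strand for Chac1, where the match reads as the reverse complement of the element.
Asns: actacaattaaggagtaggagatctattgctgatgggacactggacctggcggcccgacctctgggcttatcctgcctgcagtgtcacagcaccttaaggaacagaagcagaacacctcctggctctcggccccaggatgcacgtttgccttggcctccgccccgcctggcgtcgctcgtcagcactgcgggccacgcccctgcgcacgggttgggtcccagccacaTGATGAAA
Chac1: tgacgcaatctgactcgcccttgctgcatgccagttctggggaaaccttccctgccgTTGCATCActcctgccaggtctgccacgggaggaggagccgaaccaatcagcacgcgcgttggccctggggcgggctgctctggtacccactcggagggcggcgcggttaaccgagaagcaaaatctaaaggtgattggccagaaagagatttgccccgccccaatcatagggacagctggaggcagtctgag
The Asns match lies 23 to 16 bases before the RefSeq start, which is 45 bases inside the gene as GENCODE gives it, so that the match itself lies within that gene, and the Chac1 match 193 to 186 bases before it. A match describes letters only, and no match says only that these letters were not in this window.

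Per kilobase of exon, the scale on which levels of different genes can be compared, Atf4 and Cth were the most abundant members in kidney without tumor. Control kidney had a level of 72.3 CPM per kb of Cth and 61.8 CPM per kb of Atf4, and non-transformed kidney 73.0 and 58.4 CPM per kb. In the 5 other groups Atf4 was the most abundant, from 51.9 CPM per kb in dysmorphic fetal kidney to 111 CPM per kb in brain tumors. Trib3, a pseudokinase of the stress response, was the least abundant member in every group, between 0.115 CPM per kb in control fetal kidney and 1.09 CPM per kb in brain tumors.

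Group means placed brain tumors highest for Atf4, Ddit3, Trib3, Asns, Chac1, Psat1 and Mthfd2, with mean levels of 261 ± 99.3, 43.2 ± 23.9, 2.32 ± 2.63, 104 ± 69.4, 10.1 ± 10.3, 47.2 ± 32.8 and 53.7 ± 53.0 CPM (SD, n = 3). In each of these 7 genes the range of the brain tumors overlapped that of the next group, so the top of the order was not set apart. Phgdh was highest in control fetal kidney (52.2 ± 11.0 CPM, SD, n = 3). Shmt2 and Cth had their highest mean levels in adult kidney without tumor. Shmt2 was at 64.0 ± 11.9 CPM (SD, n = 3) in control kidney and 15.2 ± 1.87 CPM (SD, n = 4) in retro-orbital tumors, and Cth at 202 ± 22.2 CPM and 16.1 ± 4.82 CPM, with its lowest mean, 8.22 ± 3.70 CPM (SD, n = 5), in dysmorphic fetal kidney. The neighboring groups whose ranges did not overlap were dysmorphic above control fetal kidney for Asns, kidney tumor above control kidney and control above non-transformed kidney for Ddit3, retro-orbital above kidney tumor for Phgdh, retro-orbital tumor above control kidney for Mthfd2, control fetal kidney above retro-orbital tumor for Shmt2, and for Cth control kidney above kidney tumor and control fetal kidney above retro-orbital tumor. This is a description, and the share of all genes without overlap, given with each comparison of groups, was not computed for retro-orbital tumors with control kidneys of adults or fetuses.

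Kidney tumors were compared to control kidneys to see how the members stood where the fusion had produced a tumor. Ddit3, which encodes the stress transcription factor CHOP, and Asns, the asparagine synthetase, rose about 3-fold in the tumors. Shmt2 and Cth were lower in every tumor mouse than in every control mouse, but neither passed the test. By library, Shmt2 in library 7, at 69.2 CPM, lay inside the range of the control libraries, 44.4 to 83.9 CPM. Cth in library 9, the tumor of mouse 5, was at 154 CPM, also inside its control range of 141 to 244 CPM. In edgeR's quasi-likelihood test with Benjamini-Hochberg adjustment over 23578 genes, 2 of the 10 members passed, both higher, compared to 19% of all genes tested, of which 12.5% were higher and 6.51% lower. For 4 members the groups did not overlap, Ddit3 and Asns above and Shmt2 and Cth below, compared to 29.8% of all genes, 15.2% above and 14.7% below. The median log2 fold change was 1.01 over the members and 0.0457 over all genes. Summed leukocyte markers were at 157 to 502 CPM in the tumors and 78.0 to 96.6 CPM in controls, and the proliferation markers Mki67 and Top2a together at 291 to 477 and 45.8 to 66.9 CPM. Their part in the values of the members and of the lists was not tested.

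Ddit3 was at 10.003, 13.96 and 11.6 CPM in the 3 control mice and between 19.8 and 46.4 CPM, with a median of 38.4 CPM, in the 6 tumor mice. The lowest tumor mouse thus lay above the highest control, and the log2 fold change was 1.60 (SE 0.32, adjusted p = 0.0105). Asns was at 7.31, 7.02 and 7.29 CPM in controls, a spread of 0.164 CPM (SD, n = 3), and between 8.30 and 44.8 CPM with a median of 20.96 CPM in tumors. The tumor mice were all above the controls, but by library the tumor of mouse 5, at 8.16 CPM, lay inside the control range of 5.53 to 8.21 CPM. The highest value, that of mouse 4, covers library 7 at 77.5 CPM and the other tumor at 11.3 CPM, and the next highest mouse was at 26.4 CPM. The log2 fold change was 1.64 (SE 0.50, adjusted p = 0.0465). Trib3 was at 0.297, 0.453 and 0.324 CPM in controls and from 0.322 to 2.70 CPM in tumors, with a log2 difference of 2.06 (SE 0.65, adjusted p = 0.0546) that missed the threshold, and the tumor of mouse 5 lay among the controls. Atf4 itself was at 127, 167 and 144 CPM in controls and 146 to 223 CPM in tumors, a log2 difference of 0.41 (SE 0.16, adjusted p = 0.105). Chac1, which degrades glutathione, was at 1.29, 1.11 and 1.28 CPM in controls and 0.883 to 4.43 CPM in tumors (log2 difference 0.83, adjusted p = 0.289).

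In the serine and folate branch the tumors were mixed. Psat1, the phosphoserine aminotransferase, was at 10.8, 12.4 and 11.2 CPM in controls and from 9.65 to 39.7 CPM in tumors, with 5 of 6 tumor mice above every control mouse (log2 difference 1.19, SE 0.41, adjusted p = 0.0716). Phgdh, the dehydrogenase at the entry of the pathway, was at 6.65, 8.78 and 7.80 CPM and from 7.88 to 21.6 CPM (log2 difference 0.64, SE 0.33, adjusted p = 0.186). Mthfd2 was at 3.86, 7.02 and 7.76 CPM in controls and from 5.67 to 25.7 CPM in tumors (log2 difference 1.41, SE 0.49, adjusted p = 0.0702). None of these passed the test. The tumor of mouse 5 was not above every control for Psat1 and Mthfd2, nor were those of mice 1 and 2 for Phgdh.

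Shmt2 was at 53.5, 76.9 and 61.6 CPM in controls and from 13.7 to 47.6 CPM, with a median of 21.5 CPM, in tumors (log2 difference -1.20, SE 0.37, adjusted p = 0.0518). Cth was at 227, 184 and 195 CPM in controls and from 24.0 to 157 CPM, with a median of 53.3 CPM, in tumors (log2 difference -1.49, SE 0.53, adjusted p = 0.0752). Over the tumors, both genes were highest in those of mice 4 and 5, at 47.6 and 43.0 CPM of Shmt2 and 112 and 157 CPM of Cth, the mice whose tumors held the most proximal tubule transcripts. In mouse 4, Shmt2 was at 69.2 CPM in library 7 and 25.3 CPM in the other tumor, which is below the 29.7 CPM of library 5 of mouse 3. In mice 2, 3 and 6, whose tubule markers summed to 637 to 644 CPM, Shmt2 was at 13.7 to 22.7 CPM and Cth at 24.0 to 52.9 CPM. In mouse 1, at 2493 CPM of tubule markers, Shmt2 was at 20.2 CPM, inside that range, and Cth at 53.7 CPM, just above it. The part of the tubule content in these values was not tested, and in bulk tissue fewer cells of a type and less RNA per cell cannot be told apart. Without the kidney tumor of mouse 5, 7 members passed the test, Ddit3, Trib3, Asns, Psat1, Mthfd2, Shmt2 and Cth. Without library 7 of mouse 4, 4 passed, Ddit3, Trib3, Asns and Shmt2. Without library 4 of mouse 2, which held muscle transcripts, only Ddit3 passed, and Asns had a log2 difference of 1.61. Without any 1 of fusion mice 2, 3 and 6 or control mice 1 and 2, only Ddit3 passed, and without control mouse 3 none did, at an adjusted p of 0.0551 for Ddit3. DESeq2 called 7 members, the same 7 as without mouse 5. Calls over all genes rose as well, from 4474 to 7070 with DESeq2 and to 5856 of 23289 without mouse 5. All 3 control mice were female and 2 of the 6 fusion mice male by Y-linked transcripts, and with sex as a covariate 6 members and 6118 genes in all passed.

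**Figure D2:**
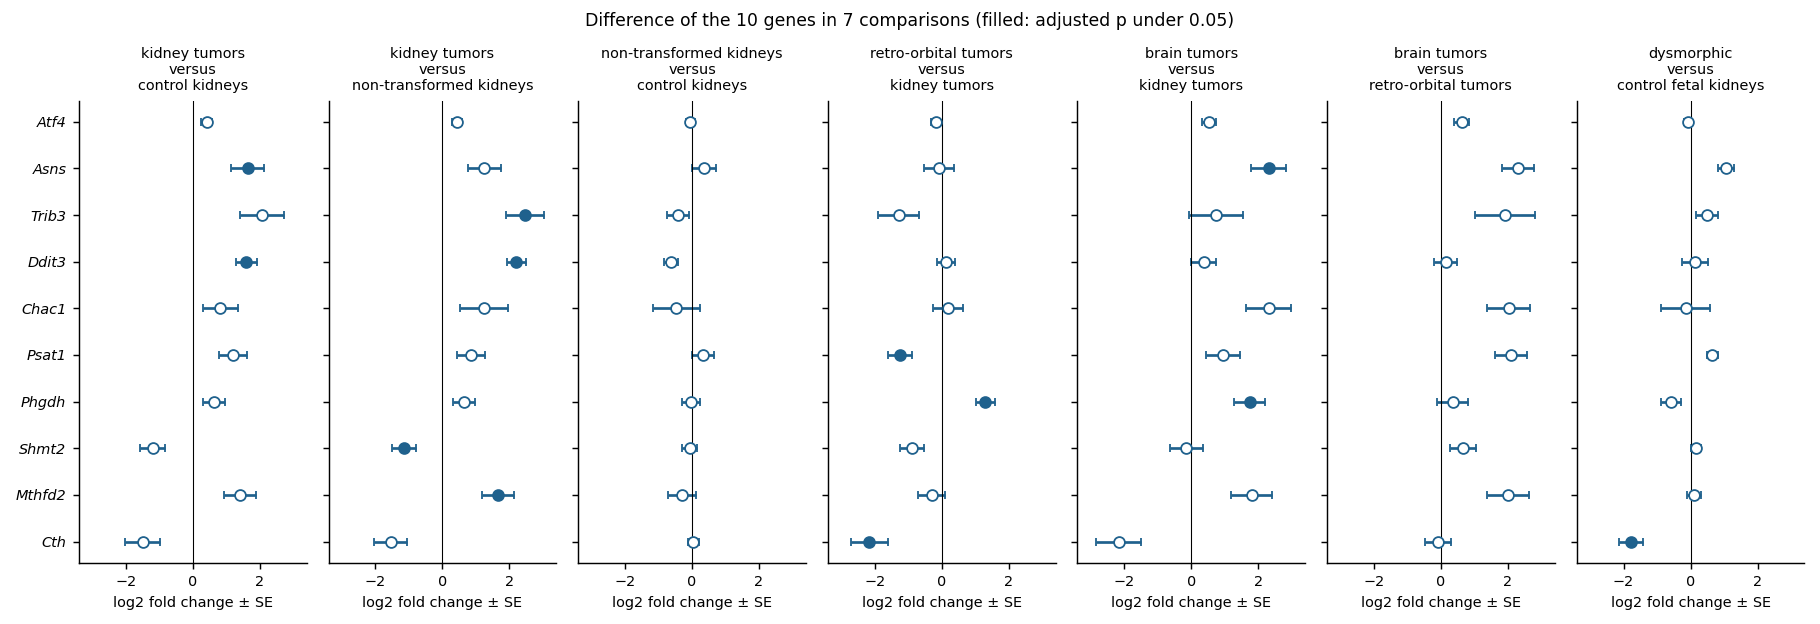
Log2 fold change of each member with its standard error in the 7 comparisons of groups, filled where the adjusted p of edgeR's quasi-likelihood test was under 0.05. Ddit3 and Asns passed in kidney tumors against control kidneys, Phgdh in both comparisons of distant with kidney tumors, and Cth in the retro-orbital and fetal comparisons.

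Lists of neighboring genes were read beside the members. Of 14 other ATF4 response genes tested, 9 rose in kidney tumors compared to control kidneys and 1 fell, with a median log2 fold change of 1.28 (0.0457 over all genes). Gdf15, a secreted stress cytokine, and Atf3, a stress transcription factor, rose most, by 4.51 (SE 0.73, adjusted p = 0.00452) and 4.39 (SE 0.79, adjusted p = 0.00741). Atf3 went from a mean of 1.86 CPM in controls to 38.3 CPM. Atf5 and Cebpb, a bZIP partner of ATF4, followed at 2.42 and 2.31. Herpud1, which acts in degradation of proteins of the endoplasmic reticulum, was the 1 that fell, by 1.78, and is named here after its value was seen. DESeq2 called 9 higher and 1 lower, and without control mice 1, 2 and 3 in turn 4, 3 and 3 rose. Among 8 amino acid transporters, only Slc7a11, the cystine importer, rose, by 7.85 (SE 1.06, adjusted p = 0.00184), from a mean of 0.352 CPM to 80.3 CPM. Of 20 cytosolic transfer RNA synthetases, Sars, which charges serine, and Lars rose, by 0.84 and 0.53.

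In the list of serine and glycine metabolism, of which 9 genes were tested, Sdsl, a serine dehydratase-like gene, rose by 2.11, and 4 genes fell, among them Amt of the glycine cleavage system by 1.51, cytosolic Shmt1 by 1.43 and the serine racemase Srr by 1.02. In the folate list of 14, mitochondrial Mthfd1l rose by 1.99 (SE 0.31, adjusted p = 0.00419), while the folate carrier Slc19a1 and the cytosolic Mthfd1 fell by 1.56 and 1.38. Of 10 genes of transsulfuration and methionine tested, Mpst fell by 1.40 and the median was -1.18. No gene of the 15 in the list of the unfolded protein response of the endoplasmic reticulum passed edgeR's test, with 2 at an unadjusted p under 0.05 and 2 called lower by DESeq2. Of 7 glutathione genes none passed either, with 2 at an unadjusted p under 0.05 and 1 called lower by DESeq2, but 5 fell without the tumor of mouse 5. Among the eIF2 kinases, eIF2 and its phosphatase, Ppp1r15b, a subunit that directs the phosphatase, fell by 0.80 and the heme-sensing kinase Eif2ak1 by 0.42, and of the mitochondrial list Clpx fell by 1.02.

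**Figure D3:**
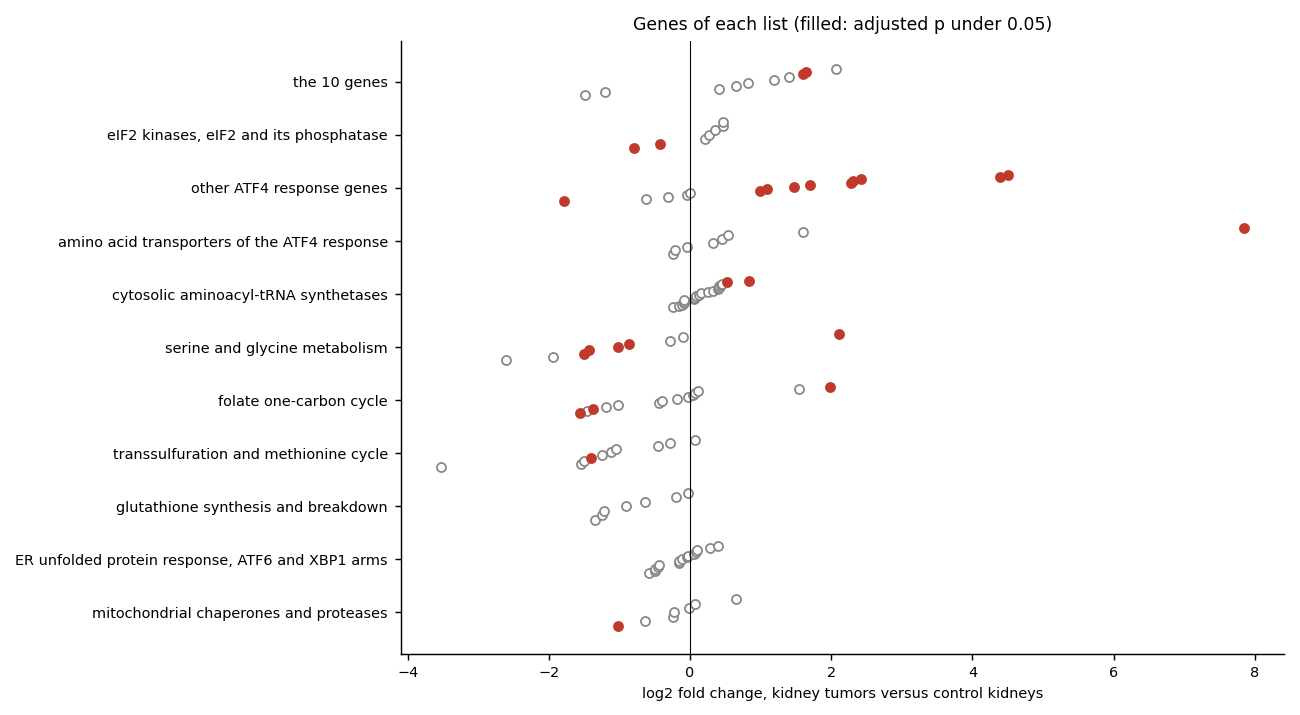
Log2 fold change of each gene tested, in kidney tumors compared to control kidneys, with 1 row for the 10 members and for each list and filled points where the adjusted p was under 0.05. The other ATF4 response genes had 9 filled points above 0 of 14, and the unfolded protein response of the endoplasmic reticulum had none among 15.

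The second comparison set kidney tumors against non-transformed kidney of fusion mice, in which Gpnmb was above its level in control kidneys. Ddit3, Trib3 and Mthfd2 rose and Shmt2 fell, 4 of 10 members compared to 17.1% of 21930 genes, with 12.1% higher and 5.02% lower. Ddit3 was the one member whose groups did not overlap, compared to 17.6% of all genes, 11.4% above and 6.15% below. Ddit3 was at 6.19, 9.56, 8.40 and 5.84 CPM in the non-transformed kidneys of mice 1, 3, 4 and 5, below its level in every tumor, with a log2 fold change of 2.20 (SE 0.29, adjusted p = 0.00102). Trib3 was at 0.225, 0.336, 0.220 and 0.262 CPM there, and its log2 fold change was 2.45 (SE 0.57, adjusted p = 0.0174), with only the tumor of mouse 5, at 0.322 CPM, inside the range of the kidneys. Mthfd2 was at 2.95, 9.30, 3.65 and 4.00 CPM, highest in mouse 3, with a log2 fold change of 1.67 (SE 0.47, adjusted p = 0.0375). Shmt2 was at 75.9, 55.5, 41.4 and 64.9 CPM, with a log2 fold change of -1.14 (SE 0.35, adjusted p = 0.0495). Cth was at 183, 261, 217 and 153 CPM and missed the threshold (log2 difference -1.55, SE 0.49, adjusted p = 0.0531). Asns was at 7.25, 16.8, 7.35 and 5.17 CPM, and the value of mouse 3 lay among the tumors (log2 difference 1.25, SE 0.49, adjusted p = 0.105). Tubule markers summed to 11585 to 14583 CPM in the non-transformed kidneys and 637 to 7945 CPM in the tumors, leukocyte markers to 72.1 to 154 and 157 to 502 CPM, and proliferation markers to 25.9 to 57.5 and 291 to 477 CPM. Their part in the values of the members was not tested.

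In mice 1, 3, 4 and 5, which gave both tissues, 1 member passed with the mouse as a block, Ddit3, and also 1 without the block in the same mice, again Ddit3. Without fusion mouse 1 only Ddit3 passed, without mouse 4 Ddit3 and Shmt2, without mouse 3 Ddit3 and Mthfd2, and without mouse 6 Ddit3 and Trib3. Without library 7 of mouse 4, or without the tumor of mouse 5, 6 passed, and without library 4 of mouse 2 Cth passed beside the 4. DESeq2 called 7, and 6004 genes in all compared to 3755. In the other lists, Atf3 and Gdf15 rose by 3.98 and 3.97 and Slc7a11 by 6.32, and Ahcy, which clears S-adenosylhomocysteine, and Mpst fell by 1.502 and 1.62. Of 14 other ATF4 response genes 5 rose and 1 fell, and without fusion mouse 1 or 3 only 3 rose. With the mouse as a block 2 rose, and in the same mice without it 3. Of the 9 genes of serine and glycine metabolism 1 rose, Sdsl, and 4 fell, Amt, Srr, Gcsh and Shmt1. The tumors in this comparison are the same as in the comparison to control kidneys.

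Non-transformed kidneys were then set against control kidneys to see whether fusion mice differed outside the tumors. By edgeR's quasi-likelihood test 0 of 10 members passed, compared to 0.00952% of 21019 genes, which is 2 genes, both higher. DESeq2 also called 0 members. A single member, Ddit3, had an unadjusted p under 0.05, and it was lower in the non-transformed kidneys. Its 4 values lay below the 3 control values, with a log2 difference of -0.63 (SE 0.20, adjusted p = 0.303), and groups that do not overlap made up 11.2% of all genes, 3.91% above and 7.25% below. By library, Ddit3 in the first library of control mouse 1, at 8.07 CPM, lay below the non-transformed kidneys of mice 3 and 4, at 9.54 and 8.42 CPM. Chac1 varied most, at 0.197, 2.11, 0.916 and 0.315 CPM in mice 1, 3, 4 and 5. The members other than Ddit3, Chac1 included, differed by -0.47 to 0.36 on the log2 scale.

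Variation among kidney tumors was seen within mice as well as between them. In the 5 mice with a pair of kidney tumor libraries, the higher library exceeded the lower by a median of 1.38-fold over the members in mouse 1, 1.53-fold in mouse 2, 2.04-fold in mouse 3, 2.04-fold in mouse 4 and 1.42-fold in mouse 6. The widest gaps were in mouse 4. There, library 7 had 77.5 CPM of Asns compared to 11.3 CPM in the other library, 7.76 compared to 1.02 CPM of Chac1, 35.7 compared to 7.12 CPM of Phgdh and 40.8 compared to 10.2 CPM of Mthfd2. Library 7 also held the Gfap reported above, with 14.2 CPM of the synaptic gene Snap25. Cth, at 112 and 111 CPM, and Trib3, at 1.53 and 1.62 CPM, were close in the same pair. In mouse 3, whose libraries had no such Gfap, Chac1 differed 3.91-fold, Phgdh 3.68-fold and Mthfd2 2.92-fold, and Ddit3 was at 44.6 and 44.3 CPM. Mouse 2 had its widest gaps in Cth (38.002 and 11.8 CPM) and Ddit3 (18.4 and 54.3 CPM), where the second library, number 4 of the 11, held 1397 CPM of the muscle gene Ttn and the first 37.2 CPM. Library 7 held 2005 CPM of Ttn, and the other 9 libraries 25.7 to 382 CPM. Pairs of control kidney libraries also differed, and those of control mouse 2 had 0.472 and 1.75 CPM of Chac1 and 15.1 and 8.74 CPM of Psat1. Whether pairs of tumor libraries differed more than pairs of control libraries was not tested. Each tumor had 1 library, so tumor and library cannot be told apart.

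**Figure D4:**
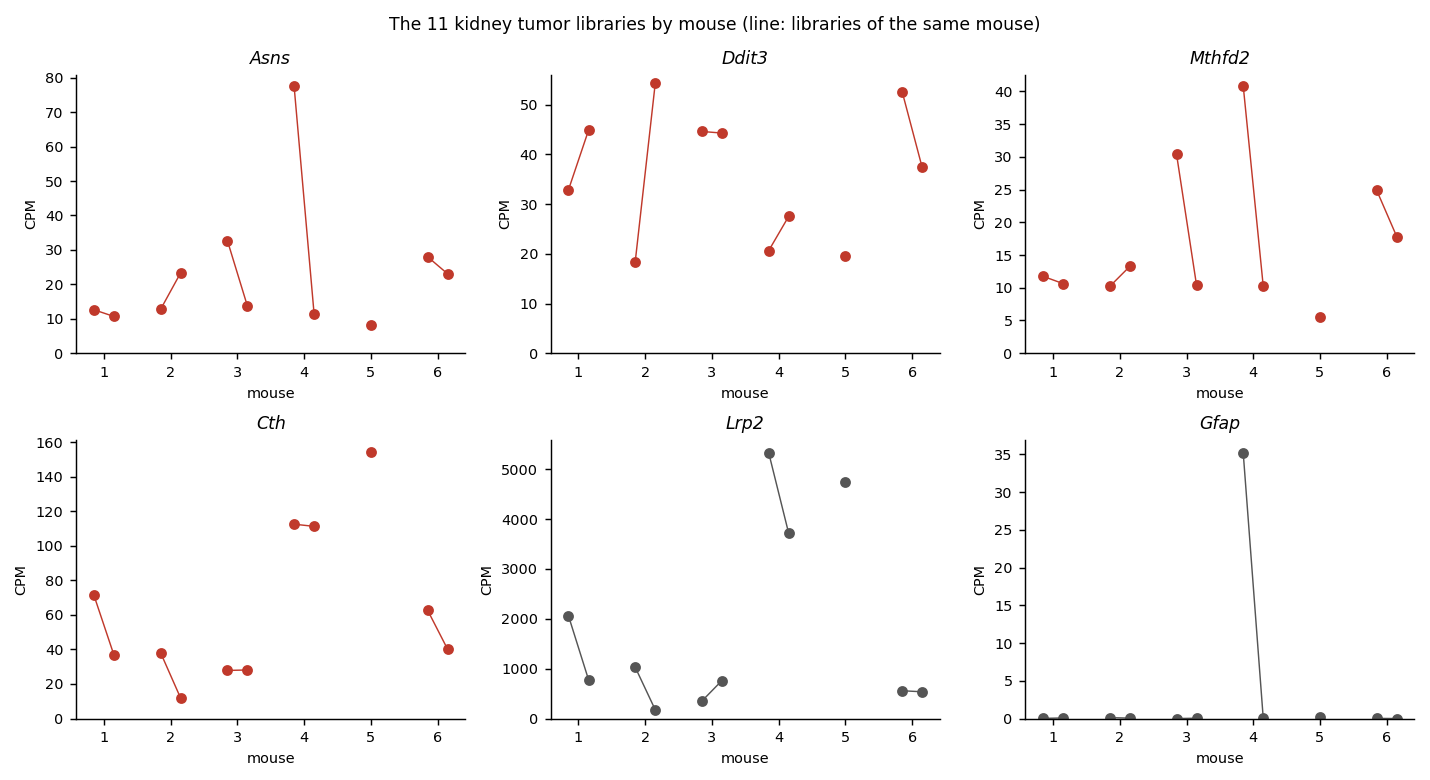
Level of Asns, Ddit3, Mthfd2 and Cth, and of the tubule marker Lrp2 and the astrocyte marker Gfap, in CPM on a linear axis in each of the 11 kidney tumor libraries, with libraries of the same mouse joined. In mouse 4 Asns was at 77.5 and 11.3 CPM, and in mouse 3 Ddit3 was at 44.6 and 44.3 CPM.

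Retro-orbital tumors were compared to kidney tumors to see whether the site of the tumor mattered for the members. Phgdh rose in the retro-orbital tumors, Psat1 and Cth fell, and the stress genes did not pass the test. The 3 called members compare to 17.7% of 22136 genes, 8.26% higher and 9.45% lower. Phgdh was at 23.5, 27.1, 35.8 and 33.6 CPM in the retro-orbital tumors of mice 2, 3, 5 and 6, all above the highest kidney tumor mouse at 21.6 CPM, with a log2 fold change of 1.30 (SE 0.28, adjusted p = 0.0123). By library, however, Phgdh in library 7, at 35.7 CPM, was as high as in the retro-orbital tumors. Counts at the copies of Phgdh were at 1.48 to 7.05 CPM in retro-orbital and 0.269 to 4.81 CPM in kidney tumor libraries. Psat1, the enzyme that follows Phgdh in serine synthesis, went the other way, at 9.41, 10.03, 14.2 and 10.9 CPM (log2 fold change -1.24, SE 0.37, adjusted p = 0.0422). The kidney tumor of mouse 5, at 9.65 CPM, overlapped that range. Cth was at 15.5, 10.009, 21.6 and 17.3 CPM, below every kidney tumor mouse, with a log2 fold change of -2.17 (SE 0.55, adjusted p = 0.023). By library, however, the retro-orbital tumors of mice 2, 5 and 6 lay above kidney tumor library 4 at 11.8 CPM. Phgdh and Cth were the members whose groups did not overlap, compared to 16.1% of all genes, 8.33% above and 7.76% below.

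Proximal tubule markers summed to 117 to 224 CPM in the retro-orbital tumors of mice 2, 3 and 6, below every kidney tumor mouse, and to 1060 CPM in that of mouse 5. Renal lineage factors summed to 0.789 to 11.6 CPM in retro-orbital tumors and 109 to 200 CPM in kidney tumors, and proliferation markers to 622 to 1043 and 291 to 477 CPM. The part of these markers in the values of the members and of the lists was not tested. With upper quartile factors, with every gene kept and in a joint fit of the adult groups, Psat1 missed the threshold, and so it did without the retro-orbital tumor of mouse 5, where Phgdh and Cth passed. Without library 7, without library 4 or without the kidney tumor of mouse 5, the same 3 members passed. In mice 2, 3, 5 and 6, which gave both tissues, Phgdh alone passed, with the mouse as a block and without it. Without all tissues of mouse 3 or of mouse 6 none passed, at adjusted p up to 0.0686 for Phgdh and 0.0829 for Cth over the alternatives. Trib3 was at 0.527, 0.772, 0.965 and 0.217 CPM, a log2 difference of -1.28 (adjusted p = 0.176), and Shmt2 at 15.6, 14.4, 17.6 and 13.3 CPM, a log2 difference of -0.88 (adjusted p = 0.107). Ddit3 at 37.9, 46.1, 30.6 and 44.5 CPM and Asns at 15.8, 21.2, 33.5 and 15.2 CPM lay inside the range of the kidney tumors. In the lists, Gdf15 fell by 3.62, Sesn2 by 0.96 and Vldlr by 0.83 of 14 other ATF4 response genes, but without mouse 3 only 1 of the list fell. Slc1a4, a carrier of serine and other neutral amino acids, rose by 1.80, the folate receptor gene Folr1 fell by 5.33, and Eif2ak4, the kinase that senses uncharged transfer RNA, rose by 1.01. In the list of the unfolded protein response, 6 of 15 genes fell, among them Dnajb9 by 0.76 and Xbp1 by 0.74, but 1 or 2 without any 1 of fusion mice 2, 3, 5 and 6 and 3 with upper quartile factors or without library 4 of mouse 2. Bhmt2 and Cdo1 of sulfur amino acid metabolism fell by 4.24 and 3.73, and the glutathione genes Ggt1 and Gss by 4.27 and 2.74. Amt, Srr and Gcsh of serine and glycine metabolism fell by 2.63, 1.28 and 1.23.

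In brain tumors compared to kidney tumors, Asns and Phgdh rose, 2 of 10 members against 8.74% of 23391 genes, 4.54% higher and 4.2% lower. Asns was at 55.6, 73.0 and 184 CPM in the brain tumors of mice 1, 2 and 4, all above the highest kidney tumor mouse at 44.8 CPM but 2 of them below library 7 at 77.5 CPM, with a log2 fold change of 2.31 (SE 0.53, adjusted p = 0.033). Summed neuron and glia markers were at 120.5, 1234 and 424 CPM in these tumors, compared to 14.7 to 92.8 CPM in kidney tumors, and their part in the level of Asns was not tested. Phgdh was at 19.2, 23.1 and 71.2 CPM, overlapping the kidney tumor of mouse 4, with a log2 fold change of 1.74 (SE 0.45, adjusted p = 0.0457), and counts at its copies were at 2.87 to 9.96 CPM. Cth was at 8.79, 13.0 and 23.1 CPM, below every kidney tumor mouse but with 2 of them above library 4 at 11.8 CPM (log2 difference -2.17, SE 0.68, adjusted p = 0.0752). Asns and Cth were the 2 members whose groups did not overlap, compared to 15.2% of all genes, 5.36% above and 9.79% below.

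The brain tumor of mouse 4 was the highest of the 3 for every member. It had 5.32 CPM of Trib3, 21.9 CPM of Chac1, 114 CPM of Mthfd2, 82.2 CPM of Psat1 and 376 CPM of Atf4. In mice 1 and 2 the values were 0.380 and 1.27 CPM of Trib3, 3.08 and 5.39 CPM of Chac1, 15.1 and 31.9 CPM of Mthfd2, 17.1 and 42.2 CPM of Psat1 and 207 and 201 CPM of Atf4. Summed leukocyte markers in the tumor of mouse 4 were at 694 CPM, compared to 142 and 143 CPM in mice 1 and 2, and neuron and glia markers at 424 CPM, compared to 120.5 and 1234 CPM. Their part in the levels of the members was not tested. Without the brain tumor of mouse 4, or without all tumors of mouse 1, 2, 3 or 6, none of the members passed, and without those of mouse 4 or 5 Asns alone did. Mice 3, 5 and 6 gave no brain tumor, so there only their kidney tumors were left out. Over all alternatives the log2 fold change lay between 1.63 and 2.73 for Asns and between 0.92 and 2.07 for Phgdh. Without library 7, the kidney tumor with brain transcripts, Chac1 passed beside Asns and Phgdh. In mice 1, 2 and 4, which gave both tissues, 0 members passed with the mouse as a block and 0 without it. Over the alternatives of this comparison, calls over all genes also went down to none. DESeq2 called 5 members, Asns, Chac1, Phgdh, Mthfd2 and Cth, and 5104 genes in all compared to 2044. In the lists, the transporters Slc38a2 and Slc7a1 rose by 1.68 and 1.39 and the synthetases Cars and Yars by 1.01 and 0.82. The glutathione genes Ggt1, Gss, Oplah and Gclm fell by 1.98 to 4.74 on the log2 scale, and 2 of the list fell without any 1 of mice 1, 2 and 4. Proximal tubule markers summed to 277 to 732 CPM in brain tumors and 637 to 7945 CPM in kidney tumors, and renal lineage factors to 1.83 to 4.45 and 109 to 200 CPM. Their part in the values of Cth and the glutathione genes was not tested.

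**Figure D5:**
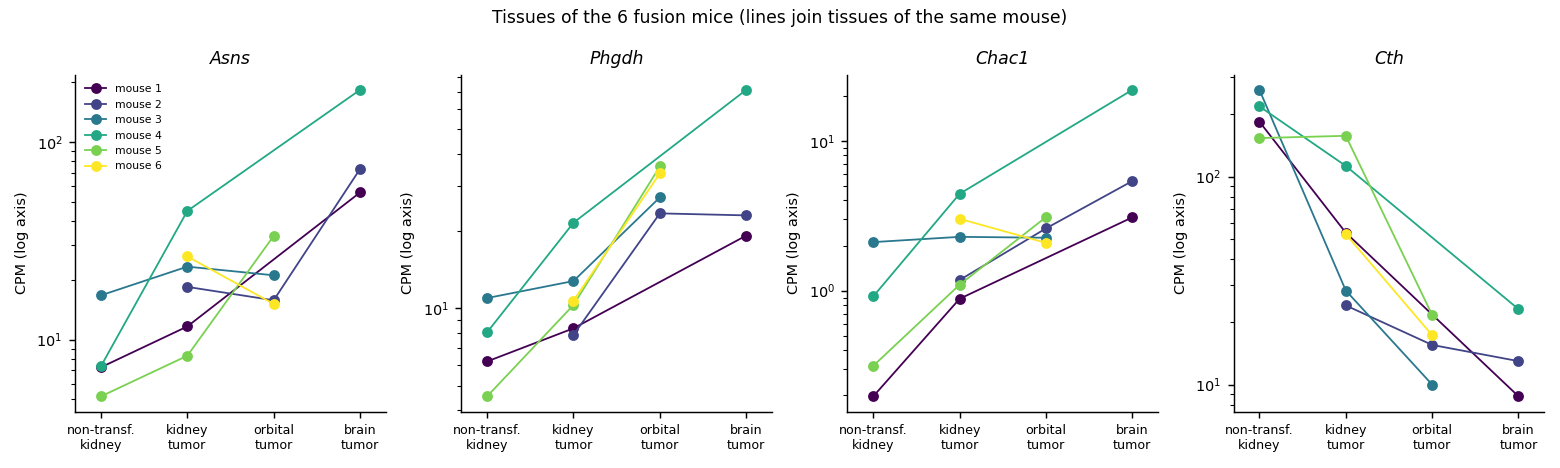
Level of Asns, Phgdh, Chac1 and Cth in every tissue of the 6 fusion mice, in CPM on a log axis, with tissues of the same mouse joined by a line. In mouse 4 Asns went from 7.35 CPM in non-transformed kidney to 44.8 CPM in kidney tumor and 184 CPM in brain tumor.

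Brain and retro-orbital tumors were set against each other to compare the distant sites. By edgeR's quasi-likelihood test 0 of 10 members passed, compared to 1.73% of 21037 genes (0.395% higher and 1.34% lower), and 5 had an unadjusted p under 0.05, all higher in brain tumors. These were Atf4, Asns, Chac1, Psat1 and Mthfd2. Asns had a log2 difference of 2.30 (adjusted p = 0.062) and Psat1 of 2.10 (adjusted p = 0.0721), and DESeq2 called 4, Asns, Chac1, Psat1 and Mthfd2, and 3080 genes in all compared to 364. The same 4 passed in edgeR without mouse 1. The groups did not overlap for 3 members, compared to 18.5% of all genes, 7.19% above and 11.3% below. Phgdh, which rose at both sites against the same kidney tumors, differed by 0.35 on the log2 scale between them (adjusted p = 0.713). In the lists, Dnajb9, a co-chaperone of the endoplasmic reticulum, and Amt were higher in brain tumors, by 1.25 and 2.17.

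Dysmorphic fetal kidneys were compared to control fetal kidneys to see the members where the fusion acts in development. Cth fell, and Asns and Psat1 were higher in every dysmorphic kidney than in every control without passing the test. The 1 member called compares to 2.67% of 22690 genes, of which 2.4% were called higher and 0.269% lower. Cth was at 26.9, 31.6 and 23.3 CPM in the control fetuses and 6.13, 12.0, 5.72, 4.78 and 12.5 CPM in the dysmorphic kidneys, with a log2 fold change of -1.78 (SE 0.35, adjusted p = 0.0438). Asns was at 21.2, 32.9 and 36.4 CPM in controls and 45.0, 74.5, 68.6, 76.1 and 58.9 CPM in dysmorphic kidneys (log2 difference 1.05, SE 0.24, adjusted p = 0.0608). Psat1 was at 22.1, 23.3 and 21.1 CPM in controls and 37.5, 30.7, 35.9, 47.0 and 29.5 CPM in dysmorphic kidneys (log2 difference 0.65, SE 0.17, adjusted p = 0.0833). For these 3 members the groups did not overlap, compared to 14.6% of all genes, 10.6% above and 3.93% below. Ddit3 stayed low, at 2.41, 3.77 and 5.20 CPM in controls and 2.23 to 6.67 CPM in dysmorphic kidneys, and Atf4 was at 124 to 129 CPM and 113 to 136 CPM. Phgdh, at 56.0, 39.8 and 60.9 CPM and from 21.5 to 53.5 CPM, differed by -0.58 (adjusted p = 0.337).

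The 5 skeletal muscle markers, among them Ttn, were each called higher in the dysmorphic kidneys and summed to 34187 to 90196 CPM, compared to 12639 to 15286 CPM in controls. The 8 tubule markers summed to 43.2 to 834 CPM in dysmorphic kidneys and 1117 to 1354 CPM in controls, but single markers differed in this. Lrp2 was at 7.56 to 98.9 CPM in dysmorphic kidneys and at 889, 368 and 68.3 CPM in control fetuses 1, 2 and 3, so that control fetus 3 lay among the dysmorphic kidneys. Cubn was at 13.7 to 35.1 CPM in dysmorphic fetuses 1 to 4 and 740.5 CPM in fetus 5, compared to 342 to 1228 CPM in controls, with its highest level in control fetus 3. Aqp1 was at 6.77 to 20.8 CPM in dysmorphic kidneys and 4.58 to 9.66 CPM in controls. The part of these transcripts in the values of Cth, Asns and Psat1 was not tested. Without control fetus 3, which was low in renal lineage factors, none of the members passed, and likewise without any 1 of dysmorphic fetuses 1, 3 and 4 or control fetuses 1 and 2. With 1 animal left out the log2 fold change of Cth was -1.98 to -1.63, and over the alternatives calls over all genes also went down to none. Sample titles begin with 1 of 2 prefixes that are shared by dysmorphic and control fetuses, and with the prefix as a block none passed. With sex as a covariate none passed either. DESeq2 called Asns, Psat1 and Cth, and 2717 genes in all compared to 605. In the lists, Atf3 rose by 1.39, the amino acid transporter Slc7a5 by 1.495 and the mitochondrial folate gene Aldh1l2 by 2.04, and Gcsh and the glutathione gene Gclm fell by 0.80 and 1.08. Without any 1 of the 3 control fetuses or of dysmorphic fetuses 1, 3 and 4, Atf3 was not called. The calls of the other genes named here are given for the fit of all fetuses only.

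Whether the difference from control was the same in the adult and fetal models was tested as an interaction. By edgeR's quasi-likelihood test 0 members passed, compared to 8.94% of 24444 genes (6.87% higher and 2.07% lower in the adult contrast), with 6 members at an unadjusted p under 0.05. DESeq2 called 2, Ddit3 and Shmt2, and 3712 genes in all compared to 2185. Ddit3 was 1.52 higher on the log2 scale in the adult contrast (SE 0.50, adjusted p = 0.0713) and Shmt2 1.35 lower, a log2 difference of -1.35 (adjusted p = 0.0639). Cth, lower in both, differed by 0.29 between the models (adjusted p = 0.832). Without mouse 5, Trib3, Ddit3, Shmt2 and Mthfd2 passed, and without library 7 of mouse 4 Shmt2 alone did. The list of 15 other ATF4 response genes had 6 called higher and 1 lower in the adult contrast, among them Gdf15 by 4.60 and Atf3 by 3.06. Without any 1 of the 3 control mice 1 or 2 of the list were called higher, and without control fetuses 2 or 3 likewise 2 and 1. The transporter Slc7a11 was higher there by 6.53. The adult and fetal libraries came in separate count tables, and model, age and table cannot be told apart.

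Members were also correlated with one another over the 28 sums, as a description, since sums share mice and libraries of 1 group resemble each other. Pearson's r of log2 CPM was 0.855 between Asns and Mthfd2, 0.838 between Ddit3 and Chac1 and 0.764 between Shmt2 and Cth. It was -0.758 between Asns and Cth. Among 13020 genes, those most like Asns were Arpp21, Slitrk2 and Slc7a5 (r = 0.936, 0.921 and 0.911), and those most like Ddit3 were B2m, Pdxk and Gabarapl2 (0.968, 0.966 and 0.966). Cth was most like Oard1, Cryz and Scp2 (0.979, 0.975 and 0.975), and Shmt2 most like Erlin1, Ahcy and Ccdc107 (0.907, 0.902 and 0.892). Mthfd2 was nearest to Maged1, Cars and Ccnf (0.932, 0.864 and 0.862), Phgdh to Tead2, Zfp516 and Dctd (0.930, 0.892 and 0.891), and Atf4 to Leprotl1, Dhx37 and Usp39 (0.916, 0.904 and 0.889). Psat1 had the weakest neighbors, Arpp21, Maged1 and Hdac3 (0.826, 0.820 and 0.800), with Trib3 nearest to Zfand2a, Cyb5r1 and Inpp5a (0.871, 0.866 and 0.863) and Chac1 to Rdh13, Bri3bp and Kctd6 (0.909, 0.884 and 0.879).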

How the data were processed

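RNA from formalin-fixed, paraffin-embedded mouse tissue was sequenced as stranded total RNA without removal of ribosomal RNA, in 28 libraries of the adult Sglt2-Cre series and 8 of the fetal Pax8-Cre series. The authors deposited raw read counts per Ensembl gene in 2 tables, and the submitters' processing notes name STAR 2.5.2a, Bowtie2, FastQC, MultiQC and GRCm38/mm10. The counting tool, annotation release and strand setting are not given in the sources used here, so reads of overlapping genes on opposite strands may have been merged. Gene names, coordinates and exon lengths were taken from GENCODE M21 by Ensembl identifier, and 53274 of the 53379 identifiers matched. Promoters came from RefSeq on GRCm38.p6.

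From the deposited counts, libraries of the same animal and tissue were summed to 28 sums, and each pair of groups was compared with edgeR 4.0.16 (R 4.3.3) by TMM factors, filterByExpr and the quasi-likelihood F-test, with Benjamini-Hochberg adjustment over all genes tested and a threshold of 0.05. All 10 members passed the filter in every comparison. SE was taken as the absolute log2 fold change over the root of the F value. CPM values were computed from the deposited counts with TMM factors over all 7 groups, separately for sums and for single libraries, and CPM per kb with the union of exons. Groups are called not overlapping where every animal of 1 group lies above every animal of the other. Fits were tested on simulated counts with changes of 2 on the log2 scale. edgeR recovered 15% of these in brain against kidney tumors, 33.5% in kidney tumors against control kidneys and 69.6% in non-transformed against control kidneys. DESeq2 recovered 58%, 70.2% and 80.9%. Over the comparisons, false calls numbered 1 to 10 with edgeR and 71 to 132 with DESeq2. A member that did not pass was thus not shown to be unchanged. Totals per library lay between 80205573 and 121415057 counts, and intervals of counts from single libraries cover counting error only.

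Groups followed the tissue and genotype labels, and mouse numbers follow the shared start of the sample titles. Tissues of the same mouse pair by design. Their deviations from the group means, correlated over genes, had r of -0.087 to 0.118 for kidney tumor with non-transformed kidney, 0.324 to 0.393 for retro-orbital with kidney tumor and -0.165 to -0.101 for brain with kidney tumor. Whether fetuses with the same title start share a litter was not stated. Alternatives were RLE and upper quartile factors, no filter, DESeq2 1.42.0, halved counts, each animal left out, joint fits, single libraries as samples, sex as a covariate and the mouse as a block. Leaving out single libraries that stood apart was chosen after seeing the data.

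The members, the gene lists and the markers were chosen with earlier results of these data known. Of each list, up to 4 called genes with the largest log2 fold change were named per comparison, and as the genes most like a member the 3 with the highest Pearson correlation of log2 CPM among 13020 genes with a mean log2 CPM of at least 1. Genes withheld from reporting were left out of the lists, and their results are not reported here.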

Additional observations from a re-analysis of the deposited data

Results flagged for a closer look

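In 40 groups of 4 to 6 animals tested for a value far from the others, 2 were found, and about 2 are expected by chance. Phgdh in the kidney tumor of mouse 4 was at 21.6 CPM with the next tumor at 12.8 CPM, and the higher of that mouse's libraries is the one with brain transcripts. Mthfd2 in the non-transformed kidney of mouse 3 was at 9.30 CPM with the next kidney at 4.00 CPM.

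No member passed the test of a different change from control in the adult and fetal models, but genes of the other lists did. The 9 described, up to 4 of each list, are given on the log2 scale as kidney tumor effect minus fetal effect. Among ATF4 response genes these were Gdf15 at 4.60, Atf3 at 3.06, Cebpb at 2.39 and Nupr1 at 2.33. The transporter Slc7a11 differed by 6.53, the folate gene Mthfd1l by 2.27, and the antiviral eIF2 kinase Eif2ak2 by 1.18. The mitochondrial chaperonin gene Hspe1 differed by 1.07 and the protease gene Clpx by -0.98. Model, age and count table cannot be told apart in these differences.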

How the results depend on the processing

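In kidney tumors against control kidneys, 2 members passed, and 0 to 7 did when 1 animal or library was left out. Every gene kept gave 1, DESeq2 7, a joint fit of the adult groups 4, each library as its own sample 8 and sex as a covariate 6. Against non-transformed kidneys, 4 passed and 1 to 6 with 1 left out, with DESeq2 7. In retro-orbital against kidney tumors, 3 passed and 0 to 3 with 1 left out, with 2 under upper quartile factors, every gene kept and the joint fit. In brain against kidney tumors, 2 passed and 0 to 3 with 1 left out, with every gene kept 1, DESeq2 5, the joint fit 5 and single libraries 4. Brain against retro-orbital tumors gave 0, 0 to 4 with 1 left out, DESeq2 4 and the joint fit 3. The fetal comparison gave 1, 0 to 1 with 1 left out, upper quartile factors 2, DESeq2 3, and 0 in the joint fit and with sex. The interaction gave 0, 0 to 4 with 1 left out, and DESeq2 2. Causes of these changes were not tested beyond the fewer animals or mice in each fit.

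With the mouse as a replicate block, 1 member passed in kidney tumors against non-transformed kidneys, 1 in retro-orbital and 0 in brain against kidney tumors, and the same mice without the block gave 1, 1 and 0. With the title start as a block, 0 passed in fetal kidneys. In the remaining comparisons, no paired analysis was possible because brain and retro-orbital tumors shared 1 mouse, and because the others had no animal in both groups.

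Of the values of single members, 40 changed sign, all without passing the test. Asns in retro-orbital against kidney tumors went from -0.08 to 0.19 with the block, 0.20 in the same mice without it and 0.045 with upper quartile factors, and from -0.50 to 0.40 with 1 animal or library left out. With 1 left out, the log2 range there was -0.01 to 0.70 for Chac1 and -0.65 to 0.016 for Mthfd2. In brain against kidney tumors it was -0.25 to 0.60 for Ddit3, -0.80 to 0.070 for Shmt2 and -0.73 to 1.06 for Trib3. In brain against retro-orbital tumors it was -0.52 to 0.18 for Cth, -0.38 to 0.38 for Ddit3 and -0.45 to 0.67 for Phgdh. In non-transformed against control kidneys it was -0.086 to 0.55 for Asns, -0.14 to 0.057 for Atf4, -0.088 to 0.14 for Cth, -0.26 to 0.13 for Phgdh, -0.035 to 0.53 for Psat1 and -0.21 to 0.084 for Shmt2. In fetal kidneys it was -0.53 to 0.16 for Chac1 and -0.12 to 0.42 for Ddit3, and in the interaction -0.056 to 0.48 for Cth. A further 70 values fell short of the threshold and 81 came to pass it, with their direction kept.

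Over all genes, calls ranged over the alternatives from 1163 to 9405 in kidney tumors against control kidneys (4474 as reported, 3668 with every gene kept, 4849 in the joint fit, 6118 with sex, 7070 with DESeq2 and 9405 with each library as its own sample), 847 to 6004 against non-transformed kidneys (3755), 0 to 493 in non-transformed kidneys (2), 1635 to 5975 for retro-orbital against kidney tumors (3919), 0 to 5933 in brain against kidney tumors (2044), 0 to 3096 in brain against retro-orbital tumors (364), 0 to 2717 in fetal kidneys (605) and 956 to 3712 in the interaction (2185). In retro-orbital tumors 1828 genes rose and 2091 fell, and with upper quartile factors 2205 rose and 1608 fell, while the median log2 difference of all genes went from -0.086 to 0.026. In the interaction that median was 0.16.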
